A study of Homo sapiens with 15 samples.

Results

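Cells of SKOV3ip1, a human epithelial ovarian cancer line, were grown for 7 days in medium without folate and compared with cells grown for 7 days in medium with folate and no antibody. These were the 3 arrays titled as no MTF and the 3 arrays titled as 5-MTF, 6 of the 15 arrays of the study. The characteristics name folic acid for the fed cells, at 2 to 10 nM (the unit is written nm in the labels), while the titles give another abbreviation for the folate source, and the labels do not reconcile them. The other 9 arrays came from 3 cultures that had the same folate medium and, for 24 hours, the antibody labelled 003, the control antibody labelled 004 or the antibody labelled MORAb003. Each condition was 1 culture and 1 RNA extract, and its 3 arrays were aliquots of that extract. A p-value below therefore compares 2 RNA extracts and carries nothing on the spread between separate cultures. In all, 14369 of 19775 genes were tested, each by the brightest of its probe sets, the sets of short probes that read a transcript.

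Folates carry one-carbon units for the synthesis of thymidylate and purines and for the return of homocysteine to methionine, the precursor of the methyl donor S-adenosylmethionine. Cells cannot make folate and take it up through the reduced folate carrier SLC19A1, the proton-coupled transporter SLC46A1 and the receptor FOLR1, which is abundant in many ovarian cancers. The epithelial markers KRT18, EPCAM and PAX8 read log2 14.12, 13.72 and 12.82 in the folate extract, and FOLR1 read 13.53. Of 14 listed markers of ovarian epithelial tumour lines 13 were tested, and these ranged from 6.62 to 14.12 there. Of the leukocyte markers, 6 of the 9 measured did not pass the filter on dim probe sets in any extract, PTPRC and CD14 among them. The 3 tested reached at most 7.53 in the folate extract. Of 13 fibroblast and endothelial markers 9 passed, at up to 9.08, and of 8 mesothelial markers 6 passed, at up to 9.68. None of these was called, which compares the extracts and does not measure absence.

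The RNA of both extracts differed in length measures. The control probe sets at the 3′ end of actin exceeded those at the 5′ end by log2 3.92, 4.13 and 4.22 in the 3 no-folate arrays and by 3.17, 3.39 and 3.16 in the folate arrays, and the gap for GAPDH was 2.37 ± 0.12 and 1.97 ± 0.05 (SD, n = 3 arrays). Wider gaps of this kind accompany shorter RNA fragments. The gap of the no-folate arrays was near that of the 003 extract, at 4.02 ± 0.10 for actin, and above that of the 004 extract, at 3.46 ± 0.31, and the MORAb003 extract, at 2.42 ± 0.13. The 3 arrays of the 004 extract read 3.82, 3.28 and 3.27, and the first of these stood apart from its own extract. The gap thus differed between both extracts compared, and its part in the differences below was not tested. Genes called lower below had median differences from folate of -0.79 without folate and -0.66, -0.25 and 0.29 in the 003, 004 and MORAb003 extracts. For genes called higher the medians were 0.74, 0.49, -0.15 and -0.30, in the same order of extracts. Of the 389 genes called below, 6 lay on the same side of each other folate-fed extract at an adjusted p under 0.05 in limma. ND2 and IGFBP6, taken from these 6, averaged 13.45 and 7.41 in the 003 extract, a contrast fixed by that choice. They averaged 13.47 and 7.45 in the MORAb003 extract, beside 12.75 and 8.03 without folate. ACTB and GAPDH themselves differed by -0.10 (limma, adjusted p = 0.719) and -0.03 (adjusted p = 0.92).

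Without folate 130 genes rose and 259 fell by at least 1.5-fold at a Benjamini-Hochberg adjusted p under 0.05 in limma. These 389 genes were 2.71% of those tested, 0.905% higher and 1.8% lower. Their differences ran from -1.63 to 1.45 on the log2 scale, with a median of 0.74 among those that rose and -0.79 among those that fell, and 64 reached 2-fold. The antibody cultures are set against the same folate arrays, so their values are not independent of these. For the 130 genes that rose, the median difference from folate was 0.49 in the 003, -0.15 in the 004 and -0.30 in the MORAb003 culture, and for the 259 that fell it was -0.66, -0.25 and 0.29. Lower and higher levels of these genes relative to folate were thus also measured in the folate-fed 003 culture. The arrays of both extracts did not overlap in any of the 389, which was also true of 42.3% of all genes tested, and of 6.36% together with a difference of 1.5-fold. The no-folate mean lay outside the means of all 4 folate-fed extracts in 328 of the 389 and in 29.5% of all genes. The 389 were picked for their difference from folate, which already places no folate beyond that mean, so the 2 values cannot be weighed against each other. By limma, 6 of the 389 lay on the same side of each other folate-fed extract at an adjusted p under 0.05. Replicate 1 of the 004 extract stood apart from its own extract. It enters the contrast of no folate with folate only through the shared error. It also enters every mean and median of the 004 extract given here, and so the count of 328. Leaving out replicate 1 of the 004 extract gave 922 genes (6.42%), which included all 389, with 191 higher (1.33%) and 731 lower (5.09%). Leaving out any 1 of the 6 arrays compared gave fewer: 101 and 206 without no-folate replicates 1 and 3, 80 higher and 53 lower without no-folate replicate 2, and 91, 249 and 102 without folate replicates 1, 2 and 3. In all 6 of those fits 81 of the 389 genes were called. Of the genes named below, SEMA3C, FZD6, TMEM209, HMGCS1, INSIG1, ELOVL5, NPC1, ANLN, KIF11, KIF20A, ALDOC, GGH, APIP, DNMT3B, OCLN, MYC and ALKBH7 were called in 0 of them.

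**Figure D1:**
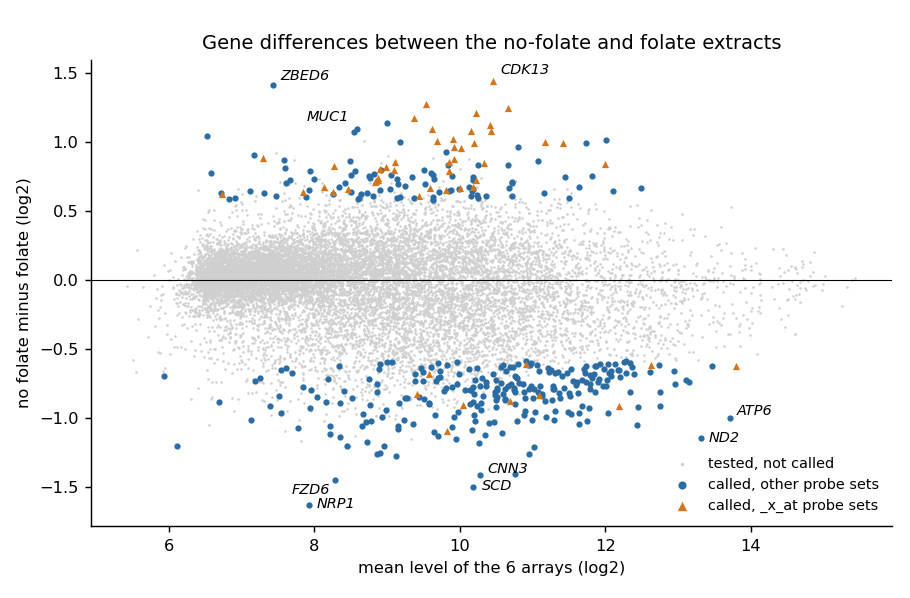
Difference between the no-folate and folate extracts (log2, y axis) against the mean level of the 6 arrays (log2, x axis) for the 14369 genes tested. Grey points were not called, and blue points and orange triangles are the 389 called genes; the triangles, whose probe set name ends in _x_at, are 42 of the 130 higher genes and 10 of the 259 lower ones.

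The 15 genes that fell most were of mixed kinds, and all but SCD and STARD4, which act on lipids, are given here. NRP1, the neuropilin receptor of class 3 semaphorins and VEGF, read log2 7.03, 7.21 and 7.12 in the no-folate arrays and 9.01, 8.66 and 8.57 in the folate arrays. All 3 no-folate arrays thus lay well below all 3 folate arrays, with a difference of -1.63 (SE 0.24, adjusted p = 0.00331). SEMA3C, a secreted semaphorin that binds neuropilins, read 8.42, 8.58 and 8.46 without folate and 9.81, 9.73 and 9.74 with it, lower by 1.27 (SE 0.30, adjusted p = 0.0342). FZD6, a Frizzled receptor for Wnt proteins, read 7.46, 7.46 and 7.78 against 9.23, 8.93 and 8.89. It fell by 1.45 (SE 0.35, adjusted p = 0.0348). NRP1 was called in all 6 fits that left out an array, and SEMA3C and FZD6 in 0. In the folate-fed cultures with antibody, NRP1 averaged 7.11 with 003, 8.30 with 004 and 9.79 with MORAb003, so the 003 culture read as low as the cells without folate. The 3 arrays with 004 read 7.54, 8.62 and 8.76, so the first of them pulled that mean down.

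CNN3, the actin-binding calponin 3, read 9.42, 9.56 and 9.75 in the no-folate arrays and 11.20, 10.81 and 10.97 in the folate arrays, a fall of 1.41 (SE 0.20, adjusted p = 0.0027). The groups stood more than 1 log2 unit apart at their nearest arrays. ADAM9, a membrane metalloproteinase, read 10.39, 10.05 and 10.82 against 11.74, 11.61 and 11.54, lower by 1.21 (adjusted p = 0.0128). Its no-folate arrays spread over more than 0.7, and the highest still lay below every folate array. Genes of vesicle traffic were also among the 15 that fell most: TMED5, a member of the p24 cargo receptor family, fell by 1.26, and SNX4, a sorting nexin of endosomes, fell by 1.25. SERINC1, SMIM15, SGCE and TMEM209, all membrane proteins, differed by -1.26, -1.40, -1.18 and -1.17, all called, SELENOT, a selenoprotein of the endoplasmic reticulum, fell by 1.20, and POLI, a DNA polymerase of translesion synthesis, fell by 1.20 to levels below the filter. None of these 15 lowest genes was read by an _x_at probe set. A second probe set passed the filter for 9 of them, agreed in sign in 9 and was called in 1, ADAM9. Those of NRP1, SCD, CNN3, SEMA3C and TMEM209 differed by only -0.27, -0.34, -0.25, -0.10 and -0.08. Those of TMED5, SNX4 and SELENOT differed by -0.70, -0.74 and -0.52.

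Some genes of sterol and fatty acid synthesis fell without folate. Of 18 tested genes of cholesterol synthesis and uptake 6 fell (33.3%) and 0 rose. Of 15 of fatty acid synthesis 3 fell (20%) and 0 rose, where 1.8% of all genes tested fell. The list medians were -0.19 and -0.33, beside 0.01 over all genes tested, and when the probe sets of each gene were averaged the fatty acid median was -0.10. Against folate, the cholesterol list had medians of -0.17, -0.27 and 0.19 in the folate-fed 003, 004 and MORAb003 extracts. Those of the fatty acid list were -0.40, -0.31 and 0.41, beside 0.03, -0.13 and -0.04 over all genes tested. The medians in the 003 extract were thus near those without folate. Without replicate 1 of the 004 extract 7 and 5 fell, where 5.09% of all genes did. SCD, the desaturase that makes oleate from stearate, read 9.44, 9.41 and 9.44 without folate and 10.97, 10.95 and 10.87 with it. The aliquots of each extract lay close together and the extracts far apart, with a difference of -1.50 (SE 0.18, adjusted p = 0.0024), with 9.97, 10.40 and 11.66 in the 003, 004 and MORAb003 cultures. HMGCS1, the synthase at the entry of the mevalonate pathway, read 10.08, 9.84 and 10.00 against 10.80, 10.72 and 10.72, a fall of 0.77 (adjusted p = 0.0364), and its second probe set fell by 1.05 (adjusted p = 0.00566). INSIG1, the membrane protein that retains the sterol sensor SCAP, fell by 0.68 (adjusted p = 0.0485) on its brightest probe set and by 1.32 (adjusted p = 0.00495) on the other. IDI1, the isopentenyl diphosphate isomerase, fell by 0.83 and 0.77 on its 2 brightest probe sets, both of the _x_at kind.

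STARD4, a sterol transfer protein, read 7.87, 7.83 and 7.85 without folate and 9.06, 9.17 and 8.90 with it, lower by 1.20 (SE 0.20, adjusted p = 0.00563), and SC5D, a desaturase late in cholesterol synthesis, fell by 1.15. SQLE, the squalene epoxidase, fell by 0.91 on its brightest probe set (adjusted p = 0.0027). Its second probe set differed by 0.23 the other way (adjusted p = 0.425). ACSL4, an acyl-CoA ligase for long polyunsaturated chains, fell by 1.01, and ELOVL5, an elongase, fell by 0.67 while its second probe set differed by 0.30 (adjusted p = 0.0746). LIPA, the lysosomal acid lipase that releases cholesterol from its esters, fell by 1.09 (adjusted p = 0.00553) and was named after its value was seen.

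The promoters of members of the lipid, mitosis and chaperone lists that fell together are given for HMGCS1, SCD, KIF20A and HSPA5, which were chosen among those that hold the letters marked, as the 250 bases before the start site in RefSeq (GRCh38.p14), read 5′ to 3′ on the strand of the gene. They lie at chr5:43313413-43313662, strand -, chr10:100346983-100347232, strand +, chr5:138178862-138179111, strand + and chr9:125241344-125241593, strand -. Capitals mark the letters CCAAT on either strand, which read ATTGG on the other, the core of the site bound by the factor NF-Y.
HMGCS1: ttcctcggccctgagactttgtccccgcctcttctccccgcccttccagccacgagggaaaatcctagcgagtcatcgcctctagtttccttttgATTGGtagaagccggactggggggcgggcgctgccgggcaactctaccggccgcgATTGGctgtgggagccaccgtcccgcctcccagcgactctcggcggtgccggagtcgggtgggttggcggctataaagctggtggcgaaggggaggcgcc
SCD: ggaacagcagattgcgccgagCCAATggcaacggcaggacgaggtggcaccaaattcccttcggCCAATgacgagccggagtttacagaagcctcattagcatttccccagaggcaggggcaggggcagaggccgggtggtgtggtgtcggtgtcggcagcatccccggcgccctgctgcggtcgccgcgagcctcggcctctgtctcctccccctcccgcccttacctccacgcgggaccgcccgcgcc
KIF20A: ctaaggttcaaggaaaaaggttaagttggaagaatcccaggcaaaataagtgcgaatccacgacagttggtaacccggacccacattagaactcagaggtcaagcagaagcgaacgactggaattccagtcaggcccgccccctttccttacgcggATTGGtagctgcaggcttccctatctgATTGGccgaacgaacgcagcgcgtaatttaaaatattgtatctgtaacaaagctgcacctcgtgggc
HSPA5: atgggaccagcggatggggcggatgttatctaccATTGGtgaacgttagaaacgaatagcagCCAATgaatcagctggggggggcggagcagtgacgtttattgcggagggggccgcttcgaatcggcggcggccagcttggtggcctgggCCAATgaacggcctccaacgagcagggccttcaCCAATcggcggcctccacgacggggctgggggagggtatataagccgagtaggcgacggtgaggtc
HMGCS1, SCD and KIF20A each held 2 matches and HSPA5 held 4. Of the called members with a promoter in the table, 4 of 5 of the cholesterol list, 2 of 3 of the fatty acid list, 4 of 6 of the mitosis list and 1 of 2 of the chaperone list held at least 1, and the others held none. Among the first listed start sites of called genes, the letters were in 91 of 216 promoters of the genes that fell (42.13%), in 33 of 112 of those that rose (29.46%) and in 3939 of 11416 of the genes tested (34.5%). The chaperone element, CCAAT and CCACG with 9 bases between them, occurred in 14 of those 11416 windows (0.12%) and once in HSPA5, starting 66 bases before the start site, where its CCAAT is the last of those 4 matches. A match is a string of letters, and binding was not measured.

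The mitochondrially encoded ND2 and ATP6 were lower without folate than in each of the 4 folate-fed cultures. They were the 2 of 7 tested mitochondrial genes that fell (28.6%, beside 1.8% of all genes). ND2, a subunit of respiratory complex I, read 12.82, 12.75 and 12.67 in the no-folate arrays and 13.89, 13.95 and 13.83 in the folate arrays, a fall of 1.14 (SE 0.10, adjusted p = 0.000222). ATP6, a subunit of ATP synthase, read 13.18, 13.15 and 13.30 against 14.19, 14.19 and 14.24, a fall of 1.00 (SE 0.10, adjusted p = 0.000432), and its second probe set fell by 0.76 (adjusted p = 0.0124). In the 003, 004 and MORAb003 cultures ND2 averaged 13.45, 13.62 and 13.47 and ATP6 from 13.75 to 14.07, so both genes lay between the no-folate and folate levels there. The other 5 tested genes did not reach 1.5-fold on their brightest probe set: COX2 differed by -0.53 (adjusted p = 0.00813), ND4 by -0.39 (adjusted p = 0.0272; its second probe set fell by 0.62, adjusted p = 0.00159), COX1 by -0.39, COX3 by -0.28 and ND6 by -0.03. None of 35 tested nuclear genes of the respiratory chain was called, and their median was -0.12.

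Genes of G2 and mitosis fell in part. Of 40 tested genes 6 fell and 0 rose, where 1.8% of all genes fell, and without replicate 1 of the 004 extract 12 fell, where 5.09% of all genes did. A negative difference was present in 36 of the 40, beside 47.7% of all genes tested, and the median was -0.36. In the folate-fed 003, 004 and MORAb003 extracts the median of the list against folate was -0.31, -0.24 and 0.07. ANLN, the anillin of the cleavage furrow, read 9.74, 9.73 and 10.01 without folate and 10.82, 10.69 and 10.80 with it, lower by 0.94 (adjusted p = 0.0342), and its second probe set fell by 1.88 (adjusted p = 0.00288). CDK1, the kinase that drives entry into mitosis, read 11.10, 10.98 and 11.49 against 12.02, 11.83 and 11.91. It fell by 0.73 (adjusted p = 0.0286), and by 1.07 (adjusted p = 0.00628) on its second probe set. The motor proteins KIF11, KIF20A and CENPE fell by 0.80, 0.80 and 0.67, and cyclin B1, CCNB1, fell by 0.65 while its second probe set differed by -0.02. In bulk RNA, fewer cells in mitosis and less RNA per cell cannot be told apart. Of 38 genes of G1/S and DNA replication and 18 p53 targets, 0 and 0 were called, with medians of -0.05 and -0.16.

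**Figure D2:**
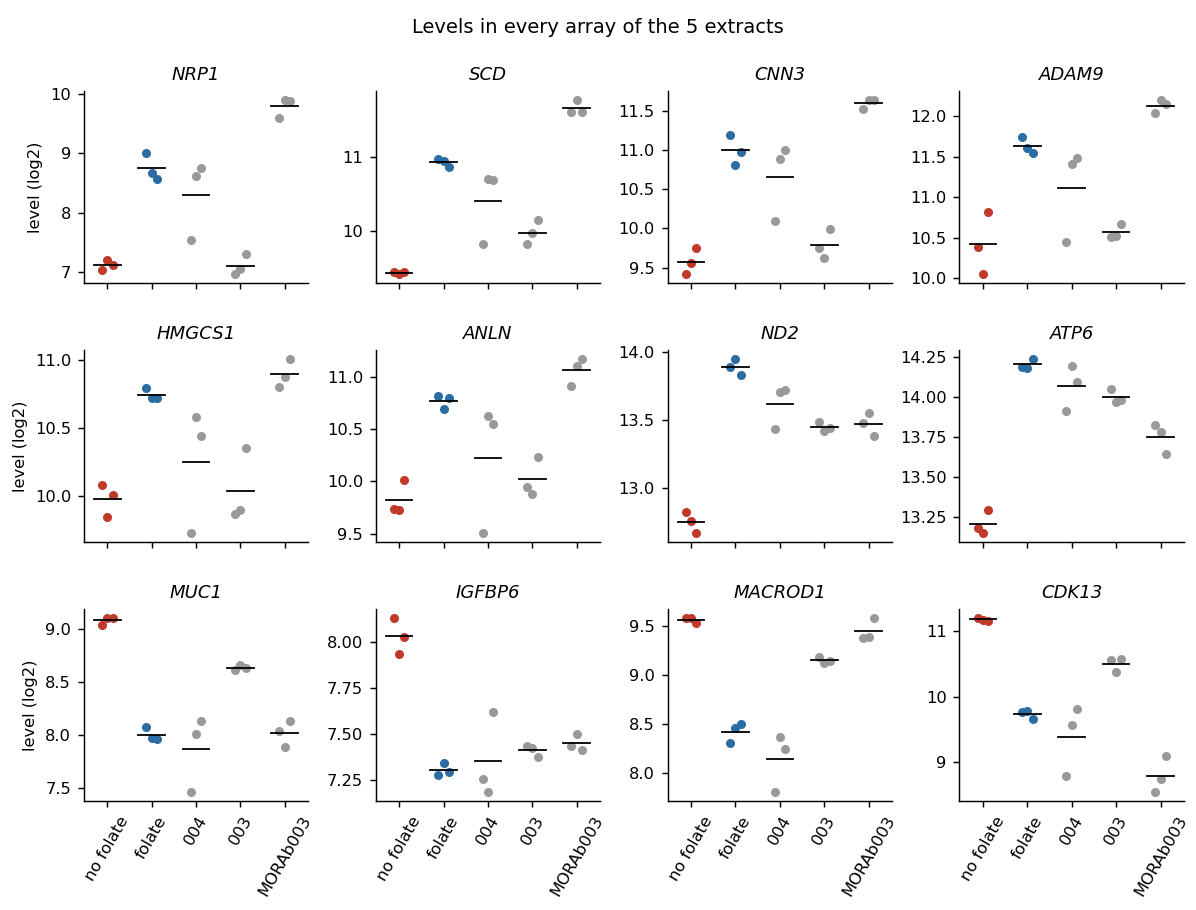
Level (log2, y axes with their own ranges) of 12 genes in every array of the 5 extracts, with the mean of 3 arrays as a bar; red is no folate, blue is folate and grey are the folate-fed cultures with the 004, 003 or MORAb003 antibody. ND2, ATP6 and IGFBP6 in the no-folate arrays lie outside all folate-fed arrays, whereas NRP1 averaged 7.12 without folate and 7.11 with 003.

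Chaperones and splicing factors were further groups with lower members. Of 23 tested genes of endoplasmic reticulum chaperones and the unfolded protein response 3 fell and 0 rose, where 1.8% of all genes fell. The list median was -0.36, and without replicate 1 of the 004 extract 5 fell, where 5.09% of all genes did. ERO1A, the oxidase that recharges protein disulfide isomerases, read 10.11, 10.03 and 10.06 against 11.02, 10.80 and 10.99, a fall of 0.87 (adjusted p = 0.011), and fell by 0.99 on its second probe set. PDIA3, a disulfide isomerase, fell by 0.72, with -0.60 (adjusted p = 0.0605) on its second probe set. HSPA5, the main chaperone of that compartment, fell by 0.66 (adjusted p = 0.00639), and its second probe set differed by 0.16 (adjusted p = 0.665). Of 13 heat shock genes 0 were called, at a median of -0.36.

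Of 33 tested splicing factors 4 fell (12.1%, beside 1.8% of all genes) and 0 rose, with a median of -0.28. Their median against folate was -0.15, -0.20 and -0.01 in the 003, 004 and MORAb003 extracts. Without replicate 1 of the 004 extract 5 fell, beside 5.09% of all genes. SF3B1, a core subunit of the U2 particle, read 11.72, 11.73 and 11.74 in the no-folate arrays and 12.74, 12.60 and 12.58 in the folate arrays, a fall of 0.91 (SE 0.13, adjusted p = 0.00312), and its second probe set fell by 0.72. All 3 no-folate arrays agreed within 0.1. SRSF10, HNRNPA2B1 and SRSF7 fell by 1.10, 0.73 and 0.61, with second probe sets at -0.38, -0.30 and -0.36 and none of these called. Of 31 genes of the hypoxia response and glycolysis 3 fell (9.68%, beside 1.8% of all genes). BNIP3, a mitochondrial death and mitophagy protein, fell by 0.85 and by 0.58 on its second probe set (adjusted p = 0.0385, just under 1.5-fold). The aldolase ALDOC fell by 0.73 and the collagen prolyl hydroxylase P4HA1 by 0.68. BNIP3, ALDOC and P4HA1 averaged, in the 003 culture, 10.74, 8.67 and 11.22 against 10.95, 9.02 and 11.50 without folate.

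Genes of folate handling itself were called in small numbers from short lists. The shares were 16.7% for uptake and retention, 7.69% for the folate cycle, 9.52% for the methionine cycle and 6.67% for purine synthesis. Of all genes tested 2.71% were called. Of 12 tested genes of uptake and retention 2 fell and 0 rose: GGH, which removes glutamates from stored folates, read 10.27, 10.24 and 10.47 without folate and 11.26, 10.94 and 11.03 with it (lower by 0.75, adjusted p = 0.0277), and the efflux pump ABCC4 fell by 0.85 (adjusted p = 0.0135). FOLR1 read 13.67, 13.87 and 13.85 against 13.45, 13.63 and 13.50, with no overlap, and differed by 0.27 (adjusted p = 0.281). Its second probe set read 11.14, 10.91 and 11.39 against 10.48, 10.55 and 10.10. That probe set differed by 0.77, past 1.5-fold, and was not called (adjusted p = 0.158). On the brightest probe sets GGH averaged 10.28, 10.90 and 11.39 in the folate-fed 003, 004 and MORAb003 cultures, beside 10.32 without folate. ABCC4 averaged 10.35, 10.57 and 10.97 there, beside 10.08, and FOLR1 13.79, 13.51 and 14.06, beside 13.80. GGH and FOLR1 thus read nearly alike in the folate-fed 003 culture and without folate. The carrier SLC19A1 and FPGS, which adds glutamates to folates, differed by 0.41 each (adjusted p = 0.186 and 0.104). Of 13 genes of the folate cycle DLD fell, by 0.96. DLD, the lipoamide dehydrogenase, serves the glycine cleavage system and other complexes, and its second probe set differed by 0.01. It averaged 10.72, 11.29 and 11.78 in the 003, 004 and MORAb003 cultures, beside 10.55 without folate. TYMS, the thymidylate synthase, differed by -0.27 (adjusted p = 0.126) on its brightest probe set and fell by 0.84 (adjusted p = 0.00654) on the second. SHMT2 and MTHFD2, mitochondrial enzymes of the cycle, differed by 0.21 and -0.17.

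In the methionine cycle 2 of 21 genes fell and 0 rose: MAT2B, the regulatory subunit of methionine adenosyltransferase, by 0.82 (adjusted p = 0.0102) and APIP, of the methionine salvage pathway, by 0.72 (adjusted p = 0.0364). In the 003, 004 and MORAb003 cultures MAT2B averaged 10.75, 11.36 and 11.86, beside 10.72 without folate. APIP averaged 10.15, 10.48 and 10.94, beside 9.86. MTR, the folate-dependent methionine synthase, differed by -0.40 (adjusted p = 0.584) and the adenosyltransferase MAT2A by 0.05. Of 15 genes of purine synthesis the salvage enzyme HPRT1 fell, by 0.79 (adjusted p = 0.0143), and the folate-dependent steps GART and ATIC differed by -0.35 and -0.15. None of 21 genes of pyrimidine and deoxynucleotide synthesis was called, and of 33 methylation enzymes of DNA and histones DNMT3B fell, by 0.63 (adjusted p = 0.0348). The medians of these lists lay between -0.11 and -0.01, and those of the purine, pyrimidine and methylation enzyme lists turned to 0.08, 0.04 and 0.06 with quantile normalization.

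**Figure D3:**
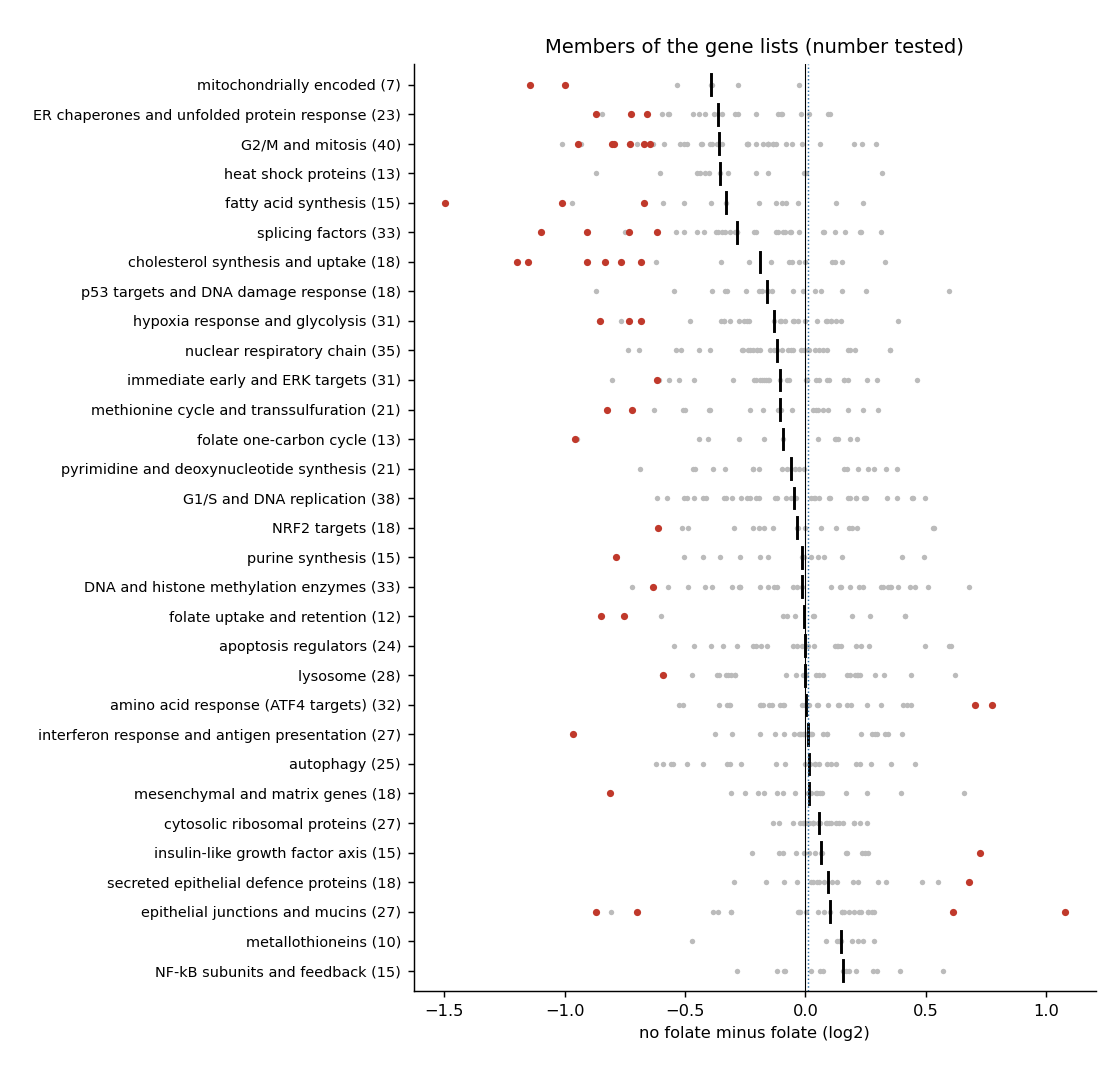
Difference between the no-folate and folate extracts (log2, x axis) for the tested members of 31 gene lists, with the number tested after each name. Red points were called, grey points were not, black bars are list medians and the dotted line is the median of all genes tested; G2/M and mitosis has 6 red points, all below 0.

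The genes that rose most were in large part read by probe sets that can match more than 1 gene. Affymetrix gives the ending _x_at to probe sets with probes that also match other transcripts. Such probe sets were the brightest for 10 of the 15 genes that rose most and for 0 of the 15 that fell most. They read 42 of the 130 genes that rose (32.3%), 10 of the 259 that fell (3.86%) and 1030 of all genes tested (7.17%). CDK13, a kinase of transcript elongation, read 11.21, 11.18 and 11.17 in the no-folate arrays and 9.77, 9.79 and 9.66 in the folate arrays on its _x_at probe set, 1.45 higher (SE 0.20, adjusted p = 0.00312). The groups were tight and far apart. On its second probe set CDK13 read 8.71, 8.65 and 8.95 against 9.06, 8.65 and 8.93 and differed by -0.11 (adjusted p = 0.919).

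The same held for other genes of this kind. NLN, the peptidase neurolysin, was 1.25 higher on the _x_at probe set and differed by -0.44 on the second. ATP8B1, a phospholipid flippase, was 1.21 higher and differed by -0.61 on the second, and QNG1 was 1.02 higher and differed by -0.44. ZNF721 was 1.08 higher and differed by -0.07, and MINDY1, a deubiquitinase, was 1.18 higher and differed by 0.05. MZT2B, ZNF160, CCDC152 and FBXW12, at 1.28, 1.13, 1.10 and 1.08, had no second probe set that passed the filter. Of the 42 such genes 28 had a second probe set, 13 of these had the same sign, 2 were called and their median was -0.01, against a median of 0.85 for the 42 on the brightest. The median level over the 42 genes was 10.19 in the no-folate and 9.33 in the folate extract, and 9.77, 9.16 and 8.74 in the 003, 004 and MORAb003 extracts. With _x_at probe sets left out before the brightest was taken, an alternative chosen after the data were seen, 92 genes rose and 251 fell.

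The other genes that rose, 55 read by _at and 33 by _s_at probe sets, included a mucin and several regulators. MUC1, a transmembrane mucin of epithelia, read 9.04, 9.11 and 9.10 without folate and 8.08, 7.97 and 7.97 with it. It was 1.08 higher (SE 0.14, adjusted p = 0.0027), and its second probe set was 0.43 higher (adjusted p = 0.0127), under 1.5-fold. MUC1 averaged 8.64, 7.87 and 8.02 in the 003, 004 and MORAb003 cultures. CLDN4, a claudin of tight junctions, rose by 0.61. It averaged 7.79 without folate and 7.77, 7.43 and 7.75 in the 003, 004 and MORAb003 cultures. The desmoglein DSG2 fell by 0.87 (0.94 on its second probe set) and the tight junction protein OCLN by 0.70 (-0.04). Thus 2 of 27 genes of epithelial junctions and mucins rose and 2 fell, 14.8% called beside 2.71% of all genes. MACROD1, a hydrolase of ADP-ribose, read 9.59, 9.59 and 9.53 against 8.31, 8.46 and 8.50, 1.14 higher (SE 0.13, adjusted p = 0.00134), with 9.15 in the 003 and 9.45 in the MORAb003 culture. ZBED6 was 1.42 higher (SE 0.20, adjusted p = 0.00312). Its reading frame lies inside the transcript of ZC3H11A, so the probes may read either. STEEP1 was 1.05 higher, from 6.96, 6.97 and 7.24 against 5.87, 6.09 and 6.06, levels near the dim end of the scale.

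IGFBP6, which binds insulin-like growth factor 2, read 8.13, 7.93 and 8.03 in the no-folate arrays and 7.28, 7.34 and 7.29 in the folate arrays, 0.73 higher (SE 0.11, adjusted p = 0.0036), and averaged 7.41, 7.35 and 7.45 in the 003, 004 and MORAb003 cultures. MIB2, a ubiquitin ligase of Notch signalling, read 8.94, 8.95 and 8.98 against 8.19, 8.19 and 8.12, 0.79 higher, and was 0.64 higher on its second probe set (adjusted p = 0.0162). With ND2, ATP6, AGAP4 (0.91 higher, in a family of near copies) and the pseudogene ZDHHC8BP (0.80 higher), IGFBP6 and MIB2 were the 6 called genes that lay on the same side of the 003, 004 and MORAb003 extracts too, each at an adjusted p under 0.05. Of all genes tested 9 met that condition (0.0626%). SLPI, a secreted protease inhibitor, rose by 0.68 (adjusted p = 0.00801), the 1 of 18 secreted epithelial defence genes called (5.56%). It did not stand apart in this way: SLPI averaged 12.19, 11.20 and 12.31 in the 003, 004 and MORAb003 cultures, beside 11.98 without folate. The translation repressor EIF4EBP1 and the factor ATF5 rose by 0.78 and 0.70, as 2 of 32 genes of the amino acid response (6.25%). Of all genes tested 0.905% rose. ATF5 differed by -0.10 on its second probe set.

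A second probe set that passed the filter was present for 219 of the 389 called genes. It had the same sign in 158 (72.2%), beside 64.3% over the 6403 tested genes with a second probe set, of which 4.5% had a second probe set that was itself called. It was called in the same direction for 30 genes, 25 lower and 5 higher. Among the genes that fell 112 of 148 agreed in sign (75.7%) and 47 reached 1.5-fold (31.8%), and among those that rose 46 of 71 agreed (64.8%) and 5 reached 1.5-fold (7.04%), where 6.61% of all genes did. A second probe set reads another stretch of the transcript on the same arrays and is no second sample. With the probe sets of a gene averaged, 39 of 83 named genes were no longer called, a total that holds the uncalled FOLR1, ACTB and GAPDH. Among the 39 were SF3B1 (-0.09, adjusted p = 0.832), HSPA5 (-0.25, adjusted p = 0.216), ELOVL5 (-0.10), TWF1 (-0.06) and CDK13 (0.17, adjusted p = 0.437).

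Several genes fell more on the second probe set. ADAM9 read 5.91, 6.19 and 5.63 against 8.37, 7.92 and 8.13 there, lower by 2.23 (adjusted p = 0.00121) beside 1.21 on the brightest. Its no-folate values there lay below the filter of log2 6.60, so that size is uncertain. RAB1A, a GTPase of transport from the endoplasmic reticulum, fell by 1.85 beside 0.75, and TMEM230, a vesicle membrane protein, with -1.60 beside -0.64. XRN2, the nuclear exonuclease that ends transcription, fell by 1.67 beside 1.02, and NNT, the mitochondrial transhydrogenase that supplies NADPH, by 1.16 beside 1.05. The 5 genes that rose on both were RNA45SN5, the precursor of ribosomal RNA (0.97 and 0.71), APOC1, an apolipoprotein (0.82 and 0.63), CIZ1, a cofactor of DNA replication (0.67 and 0.77), ALKBH7 (0.60 and 0.65) and MIB2. RNA45SN5 read 11.33, 11.36 and 11.18 without folate and 10.20, 10.44 and 10.33 with it, and exists in many near-identical copies. Both APOC1 probe sets, 1 of CIZ1 and the second of RNA45SN5 were of the _x_at kind. The opposite also occurred: PRRC1 fell by 1.10 and its second probe set was 0.56 higher (adjusted p = 0.0487), and TWF1, an actin monomer binding protein, fell by 0.97 and differed by 0.49 (adjusted p = 0.422).

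**Figure D4:**
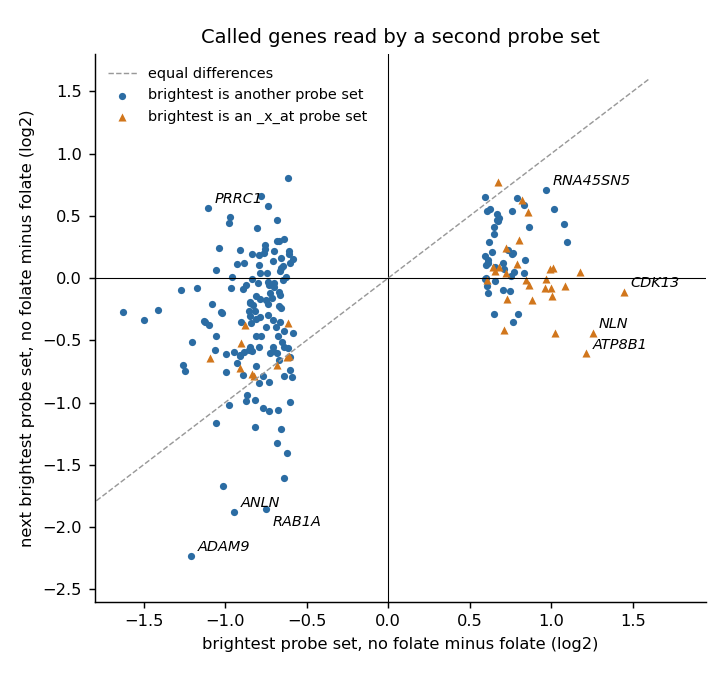
Difference on the next brightest probe set (log2, y axis) against that on the brightest (log2, x axis) for the 219 called genes with a second probe set; the dashed line marks equal differences. Orange triangles are genes whose brightest probe set is of the _x_at kind, and on the right side many of them lie near or below 0, as CDK13, NLN and ATP8B1 do.

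Other lists had few called members. NPC1, which exports cholesterol from lysosomes, fell by 0.59 as the 1 called of 28 listed lysosomal genes (3.57%, beside 2.71% of all genes), a list that does not hold LIPA. MYC, of 31 immediate early and ERK target genes, fell by 0.62, the integrin ITGAV, of 18 mesenchymal and matrix genes, by 0.81, and the thioredoxin reductase TXNRD1, of 18 NRF2 targets, by 0.61. IFIT1, an antiviral protein, fell by 0.97 as the 1 called of 27 genes of interferon response and antigen presentation. None of 27 ribosomal protein genes, 15 genes of NF-kB and its feedback, 10 metallothionein genes, 25 autophagy genes or 24 apoptosis regulators was called, with medians of 0.05, 0.16, 0.15, 0.01 and -0.0026.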

How the data were processed

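Trizol-extracted total RNA was hybridised to Affymetrix U133 Plus 2.0 arrays, per the labels. Values were deposited as log2 levels for each probe set, from 4.00 to 15.5; how the authors summarised and normalized them is not given in the sources used here. They were used as deposited. If a constant was added before the log, changes of dim genes come out too small; the number of arrays limits precision.

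Of 54675 probe sets, 62 controls were left out and 41091 carried 1 gene symbol in the platform annotation, 1801 several and 11721 none; symbols were updated through RefSeq for 41037. A gene was its brightest probe set (mean of 15 arrays), tested if at least 1 extract mean was at or above the probe sets' overall median (log2 6.60). limma 3.58.1 in R 4.3.3 fitted the 5 extract means to 15 arrays, with 10 residual degrees of freedom; calls needed a Benjamini-Hochberg adjusted p under 0.05 and 1.5-fold. Second probe sets were adjusted over all probe sets passing the filter. The fit was tested on simulated data. Members and lists were chosen with earlier results of these data known. Named genes were the 15 largest called differences each way, up to 5 called members per list, the called genes on one side of all other extracts, and the largest agreements and disagreements of second probe sets; FOLR1, ACTB and GAPDH were always given. Any other gene was named after its values were seen. A gene that the rule names is not reported here. Replicates 1 and 2 of both extracts share the first date in the array names and replicate 3 the second; the numbers were not treated as pairs (correlations of deviations of -0.40, 0.08 and -0.23 for replicates 1, 2 and 3).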

Additional observations from a re-analysis of the deposited data

How the results depend on the processing

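Directions of the 87 named genes held under all settings except the pair given next, which take another probe set, but calls were often lost: 39 of 83 genes were no longer called with the mean of all probe sets and 84 of 87 on the first array date alone. With the next brightest probe set CDK13 differed by -0.11, NLN by -0.44, ATP8B1 by -0.61, ZNF721 by -0.07, QNG1 by -0.44, ATF5 by -0.10, DLD by 0.01, SQLE by 0.23, ELOVL5 by 0.30, HSPA5 by 0.16, PRRC1 by 0.56 and TWF1 by 0.49. With _x_at probe sets left out, chosen after seeing the data, CDK13 differed by -0.11, NLN by -0.44, ATP8B1 by -0.61, ZNF721 by -0.07 and QNG1 by -0.44; these 5 are the same second probe sets.

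The 389 calls (130 higher, 259 lower) became 643 with quantile normalization (258 higher), 736 with arrays centred on their median (199 higher, 537 lower), 192 with the mean of all probe sets (56 and 136), 64 with a 2-fold minimum (19 and 45) and 919 with only the 6 arrays (729 lower). With no fold minimum 238 were higher. Restricting the fit to arrays of the first date called 0 by limma (0 higher and 0 lower), with 1456 genes at an unadjusted p under 0.05. Leaving out 1 array gave 91 to 922 calls, 52 to 191 higher and 39 to 731 lower; the cause was not tested. The replicate block gave 327 calls and a block for the array date 374. Replicate 3 of both extracts is the 1 array of the second date, so the number carries the date; the deviations of same-numbered arrays did not go together. Same-sign second probe sets ranged from 68.8% to 74.4% over the filters and means tried.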
